A study of Mus musculus with 8 samples.

Results

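Blood vessels were examined here in bulk RNA of mouse soleus, a postural muscle rich in slow fibres and capillaries, through 28 marker genes of endothelial cells and 9 of mural cells. The 37 genes were taken by exact symbol from a table of 24033 genes, and all were found. The table holds 8 libraries from animals aged 2 months. The control group, MyoCre (n = 4), had the genotype Myogenin-Cre/+, and the second group, K15-SKO (n = 4), carried the same Cre together with floxed Klf15 (K15F/F), so both groups carry Cre. The labels give no wild-type group and no animals with floxed Klf15 alone. They do not say whether each library is 1 animal, and p-values measure the spread between these samples only. The Cre is named for myogenin, a regulator of muscle differentiation, so muscle fibres are its usual site of action and vessel cells are not. In bulk tissue, fewer cells of a type and less RNA per cell cannot be told apart.

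Endothelial cells line every vessel. They are held together by junction proteins such as VE-cadherin and claudin-5, receive survival and growth signals through the VEGF and Tie receptors, and keep their identity through ETS and SOX transcription factors. Mural cells wrap this lining: pericytes on capillaries carry the PDGF receptor beta, Rgs5 and a vascular potassium channel made of Kcnj8 and Abcc9, while smooth muscle cells on arterioles carry the contractile proteins Acta2, Myh11 and Tagln. Endothelial PDGF-B and Notch ligands recruit and maintain the mural layer.

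Values are FPKM, fragments counted per length of transcript and per size of library, a unit inferred from the submitters' processing notes. Depth is not stated. An estimate from the smallest steps in the values put it at 8040000 to 22600000 fragments per library, and the members rested on an estimated 30 (Ecscr) to 18362 (Rgs5) fragments. Klf15 itself averaged 41.6 ± 12.7 (SD, n = 4) FPKM in MyoCre and 16.2 ± 2.58 in K15-SKO (log2 fold change -1.28, adjusted p = 0.0315, limma), and the libraries did not overlap. K15-SKO replicate 3 stood apart. Its non-coding Rn7sk RNA made up 14.1% of summed FPKM against 8.67% to 10.5% elsewhere, and its median gene lay 0.29 below the 8-library mean on the log2 scale. Its gene deviations also followed GC content (Spearman's rho 0.62 across 12497 genes, which are not independent replicates). This was not particular to it: rho was -0.61 in MyoCre replicate 4, -0.56 in K15-SKO replicate 4 and 0.39 in MyoCre replicate 2. The libraries labelled MyoCre included 1, replicate 2, with Y-linked transcripts (mean 16.2 FPKM against 0 in every other library). Its Xist value was 0.01 FPKM, against 21.0 to 50.3 in the others, and the labels give no sex.

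No vessel marker passed the test between genotypes. Of 28 endothelial genes 0 reached an adjusted p under 0.05, and of 9 mural genes 0 did, where 0.550% of the 12535 genes tested were called (0.367% higher and 0.183% lower in K15-SKO). The test was limma on log2(FPKM + 0.5) with Benjamini-Hochberg adjustment over all tested genes, so fold changes below are on that scale and understate the change of low genes. All 37 members passed the filter of a mean of 1 FPKM and none was listed at 0 in any library. Without genes at 0 in one group, 12 of 12376 genes were called, so counts of 0 among so few members carry little information. At an unadjusted p under 0.05, 2 endothelial genes were higher in K15-SKO, Cdh5 and Eng, against 0.901% of all genes, and 0 endothelial genes were lower, against 3.43%. The mural genes gave 0 in either direction. Libraries did not overlap for 1 member, Cdh5, which was higher; 0.630% of all genes separated upwards and 2.72% downwards.

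With the values as deposited, the log2 fold change lay above 0 for 24 of 28 endothelial genes and for 3 of 9 mural genes, against 2889 of 12535 genes overall. The median of all genes tested was -0.12, and every one of the 28 endothelial genes lay above it, as did 5 of the 9 mural genes. The endothelial median was 0.20, or 0.33 above that of all genes, and the mural median was -0.06, or 0.06 above. These medians are descriptions, since the lists were chosen with results of these data known. Without K15-SKO replicate 3 the endothelial median lay 0.15 above that of all genes, with 24 of 28 genes above it, and the mural median lay -0.00 from it. Without MyoCre replicate 2, the library with Y-linked transcripts, the endothelial median lay 0.42 and the mural median 0.05 above that of all genes. With libraries weighted by their quality the classes were centred nearly alike, the endothelial median 0.14 and the mural median 0.12 above that of all genes. Without K15-SKO replicate 4 the mural median lay 0.15 above that of all genes, and its sign before that subtraction was not stable (0.07 with libraries scaled by median of ratios).

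**Figure D1:**
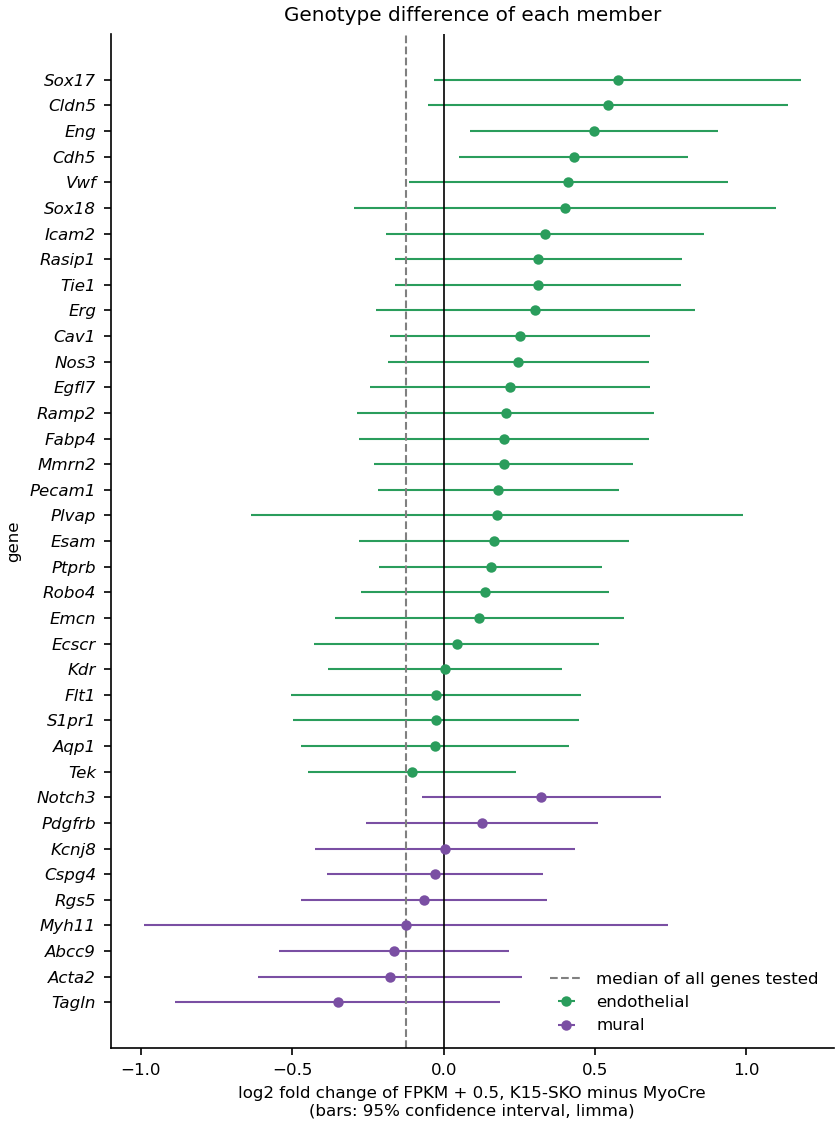
Log2 fold change (x axis, log2 of FPKM + 0.5, K15-SKO minus MyoCre) of the 28 endothelial (green) and 9 mural (purple) genes, with 95% confidence intervals from limma and the median of all genes tested as a dashed line. All 28 endothelial points lie to the right of the dashed line, while the intervals of only Cdh5 and Eng leave out 0.

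Promoter sequences are shown for the gene with the lowest unadjusted p (Eng), for a VEGF receptor gene out of step with its class over all libraries (Flt1), for the mural gene with the highest fold change (Notch3) and for the most abundant mural gene (Rgs5). Flt1 correlated with the mean of the other endothelial genes at -0.10, but at 0.83 without K15-SKO replicate 3. The sequences come from RefSeq on GRCm38.p6, which held promoters of 19 members (13 endothelial and 6 mural). Each stretch is the 250 bases before the start site, 5′ to 3′ on the gene's strand, and capitals mark matches on either strand to the motifs searched. In Eng and Flt1 the short capitals are AGGAAG, a core bound by ETS factors, or its reverse complement. The longer capitals in Flt1 and Notch3 are the GC box CCCCGCCC, bound by SP and KLF factors, and those in Rgs5 are the reverse complement of the GATA core AGATAA.
Eng, chr2:32646345-32646594, plus strand: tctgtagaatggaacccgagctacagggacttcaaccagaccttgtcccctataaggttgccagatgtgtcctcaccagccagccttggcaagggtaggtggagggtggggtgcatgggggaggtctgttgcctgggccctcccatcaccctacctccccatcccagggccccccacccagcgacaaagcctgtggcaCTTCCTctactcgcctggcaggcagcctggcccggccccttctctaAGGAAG
Flt1, chr5:147726012-147726261, minus strand: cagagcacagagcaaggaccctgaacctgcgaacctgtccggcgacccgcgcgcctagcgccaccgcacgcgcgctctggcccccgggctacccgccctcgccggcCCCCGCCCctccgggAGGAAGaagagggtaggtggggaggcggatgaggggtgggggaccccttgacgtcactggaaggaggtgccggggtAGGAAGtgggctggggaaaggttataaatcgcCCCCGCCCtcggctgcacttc
Notch3, chr17:32166891-32167140, minus strand: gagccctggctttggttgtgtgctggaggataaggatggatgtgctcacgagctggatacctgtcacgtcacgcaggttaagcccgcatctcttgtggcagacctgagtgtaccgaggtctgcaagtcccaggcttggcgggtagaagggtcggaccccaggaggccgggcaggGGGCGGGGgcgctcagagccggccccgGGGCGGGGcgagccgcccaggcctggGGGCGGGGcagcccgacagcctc
Rgs5, chr1:169655251-169655500, plus strand: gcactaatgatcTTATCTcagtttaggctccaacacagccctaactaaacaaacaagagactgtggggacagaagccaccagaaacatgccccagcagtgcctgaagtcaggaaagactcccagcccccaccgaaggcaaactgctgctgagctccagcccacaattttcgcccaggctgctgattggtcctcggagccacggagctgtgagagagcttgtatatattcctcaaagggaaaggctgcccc

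Over the window from 250 bases before to 50 after the start, AGGAAG occurred in 10 of 13 endothelial genes (76.9%) and in 0 of 6 mural genes, while 38.4% of all genes with a promoter held it. By promoter the shares were 61.1% of 18 endothelial promoters, 0% of 6 mural promoters and 35.4% of 32851. The other ETS form searched, CCGGAAG, cannot match at the same place as AGGAAG and was in 0 member promoters, against 8.86% of all. The SOX core AACAAT was in 16.7% of endothelial and 0% of mural promoters (10.7% of all), and AGATAA in 11.1% and 16.7% (11.2% of all). The GC box was in 27.8% and 33.3% (17.6% of all), and the CACCC box CCACACCC, another KLF motif, in 11.1% and 0% (3.56% of all). The CArG box bound by serum response factor was searched only in its exact form (CC, 6 of A or T, GG). It was in 0 promoters of either class and in 1.63% of all. Near matches, such as ccctatatgg and ccttgtttgg in the Acta2 promoter, were not counted. Myh11 and Tagln had no promoter in the set. Matches are letters in a window and were not tested as binding sites.

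Among junction genes, Cdh5 encodes VE-cadherin, the adhesion molecule of the endothelial junction (mm10, chr8:104101625-104144511, plus strand; positions here and below span the whole gene, exons and introns). It measured 18.3, 27.1, 25.7 and 21.2 FPKM in MyoCre replicates 1 to 4 and 29.1, 31.8, 31.5 and 31.3 in K15-SKO. Every K15-SKO library was above every MyoCre library, and the K15-SKO values were close together (30.9 ± 1.23, SD, n = 4, against 23.1 ± 4.03). Its log2 fold change was 0.43 (SE 0.18), with an unadjusted p of 0.0291 and an adjusted p of 0.948 in limma. Pecam1, the adhesion molecule CD31 of endothelial contacts (chr11:106654217-106750628, minus strand), measured 29.9, 41.1, 38.8 and 31.2 FPKM in MyoCre. In K15-SKO it measured 33.1, 41.6, 47.3 and 37.9 FPKM, so the groups overlapped through most of their range (log2 fold change 0.18, 95% interval -0.22 to 0.58). Cldn5, the tight junction protein claudin-5, averaged 14.7 ± 4.15 FPKM in MyoCre and 22.5 ± 9.61 in K15-SKO (log2 fold change 0.54, unadjusted p = 0.0701, limma). K15-SKO replicate 3 was highest at 35.6 FPKM, against 12.0 to 23.6 in the other 7 libraries, and the log2 fold change was 0.30 without it and 0.022 with library weights. The further contact proteins Esam and Icam2 had log2 fold changes of 0.17 and 0.33, with adjusted p = 0.957 for each.

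Eng encodes endoglin, an endothelial co-receptor for BMP and TGF-beta ligands (chr2:32646595-32682669, plus strand). Its values were 12.3, 15, 11.9 and 10.4 FPKM in MyoCre and 13.5, 17.4, 20.6 and 19.5 in K15-SKO. Only K15-SKO replicate 1 lay within the MyoCre range, below the highest control, and the means were 12.4 ± 1.92 and 17.8 ± 3.14 (SD, n = 4 each). The log2 fold change was 0.50 (SE 0.19, 95% interval 0.09 to 0.90), with an unadjusted p of 0.0215 and an adjusted p of 0.890 in limma. With the GC trend of each library removed, a setting chosen after seeing the data, the unadjusted p was 0.00843 for Eng and 0.0018 for Cdh5, and the adjusted p 0.444 and 0.175. With library weights Eng had a log2 fold change of 0.22 and an unadjusted p of 0.149, and without MyoCre replicate 1 Cdh5 had 0.33 and an unadjusted p of 0.12. Over all alternatives the adjusted p was 0.175 to 1 for Cdh5 and 0.444 to 1 for Eng. With the GC trend removed 9 endothelial genes had an unadjusted p under 0.05, against 5.76% of all genes, and 0 passed the adjusted threshold. Without MyoCre replicate 4 the number at an unadjusted p under 0.05 was 0, against 4.67% of all genes.

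The receptor tyrosine kinases of the endothelium did not share one pattern. Kdr, the main signalling receptor for VEGF-A (chr5:75932827-75978458, minus strand), measured 10.1, 12.8, 12.2 and 14.6 FPKM in MyoCre and 14.6, 10.6, 12.4 and 12.1 in K15-SKO. Flt1, which binds VEGF-A and limits its access to Kdr (chr5:147561604-147726011, minus strand), measured 14, 18.1, 20.2 and 12.5 FPKM in MyoCre and 18.6, 18.5, 10.6 and 16.3 in K15-SKO. The group means of both were nearly equal, with log2 fold changes of 0.00 (95% interval -0.38 to 0.39) and -0.02 (-0.50 to 0.45). K15-SKO replicate 3 was the lowest library for Flt1 and the highest for 15 of the 28 endothelial genes.

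Tek encodes Tie2, the angiopoietin receptor (chr4:94739289-94874976, plus strand). It measured 11.2, 13.5, 13.2 and 12.9 FPKM in MyoCre and 11.5, 12.2, 12.4 and 10.9 in K15-SKO, the least variable endothelial gene with a coefficient of variation of 7.83% over the 8 libraries. Its relative Tie1 (chr4:118471191-118490061, minus strand) measured 8.24, 12.1, 10.2 and 7.90 FPKM in MyoCre and 11.2, 11.2, 17.5 and 9.16 in K15-SKO. Log2 fold changes were -0.10 (95% interval -0.45 to 0.24) for Tek and 0.31 (-0.16 to 0.79) for Tie1. The phosphatase Ptprb, which acts on Tie2 and VE-cadherin, averaged 19.9 ± 3.004 and 22.1 ± 1.23 FPKM. S1pr1, the sphingosine-1-phosphate receptor that stabilises junctions, averaged 24.2 ± 5.57 and 23.6 ± 5.04, and Ramp2, a partner of the adrenomedullin receptor, 22.8 ± 6.37 and 26.1 ± 5.80.

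The transcription factor genes were low and had high values in K15-SKO replicate 3. Sox17, a SOX factor of arterial endothelium (chr1:4490931-4497354, minus strand), measured 3.14, 5.88, 5.26 and 2.97 FPKM in MyoCre and 5.12, 5.84, 11.4 and 4.89 in K15-SKO. Its log2 fold change of 0.57 was the highest of the 37 (95% interval -0.03 to 1.18, adjusted p = 0.957, limma) and was 0.31 without K15-SKO replicate 3. Erg, an ETS factor required for endothelial identity, averaged 4.70 ± 1.37 and 5.96 ± 2.10 FPKM, and its log2 fold change was 0.30 with all libraries and 0.10 without that replicate. Sox18 averaged 5.54 ± 2.77 and 6.83 ± 1.28 FPKM, with an estimated 37 fragments in its lowest library, MyoCre replicate 4.

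Genes of the luminal surface and of caveolae included the most abundant members. Fabp4, a fatty acid carrier of muscle capillaries that adipocytes also make (chr3:10204088-10208576, minus strand), measured 217, 306, 248 and 284 FPKM in MyoCre. In K15-SKO it measured 226, 289.6, 458 and 272 FPKM, the third replicate alone lying above the control range. Aqp1, a water channel also present in red cells (chr6:55336432-55348555, plus strand), measured 119, 153, 198 and 129.6 FPKM in MyoCre and 142, 168, 162 and 111 in K15-SKO. Cav1, the caveolar coat protein (chr6:17306335-17341452, plus strand), measured 91.2, 117, 111 and 129 FPKM in MyoCre and 105, 116, 173 and 147 in K15-SKO. None of the 3 separated the groups, and their log2 fold changes were 0.20, -0.03 and 0.25, with adjusted p of 0.957 to 0.989 in limma. Of 7 adipocyte markers tested, 7 had log2 fold changes below 0, as did 77.0% of all genes, and without K15-SKO replicate 4 the count was 4. Their summed FPKM was 127 to 184 in MyoCre and 89.7 to 172 in K15-SKO.

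The other 9 endothelial genes are given by their group means. Egfl7, a secreted endothelial matrix protein, averaged 53.1 ± 8.20 and 63.3 ± 19.1 FPKM. Vwf, the platelet-binding clotting factor stored in endothelial granules, averaged 7.10 ± 1.88 and 9.77 ± 3.27 FPKM (log2 fold change 0.41, 95% interval -0.12 to 0.94, and 0.23 without K15-SKO replicate 3). Nos3, the endothelial nitric oxide synthase, averaged 3.69 ± 0.94 and 4.41 ± 0.59 FPKM (log2 fold change 0.25). The sialomucin Emcn, the diaphragm protein Plvap, the guidance receptor Robo4, the GTPase regulator Rasip1, Mmrn2 and Ecscr had log2 fold changes from 0.04 (Ecscr) to 0.31 (Rasip1). Plvap, Ecscr and Icam2 rested on an estimated 42, 30 and 48 fragments in their lowest libraries, so counting error is part of their spread.

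**Figure D2:**
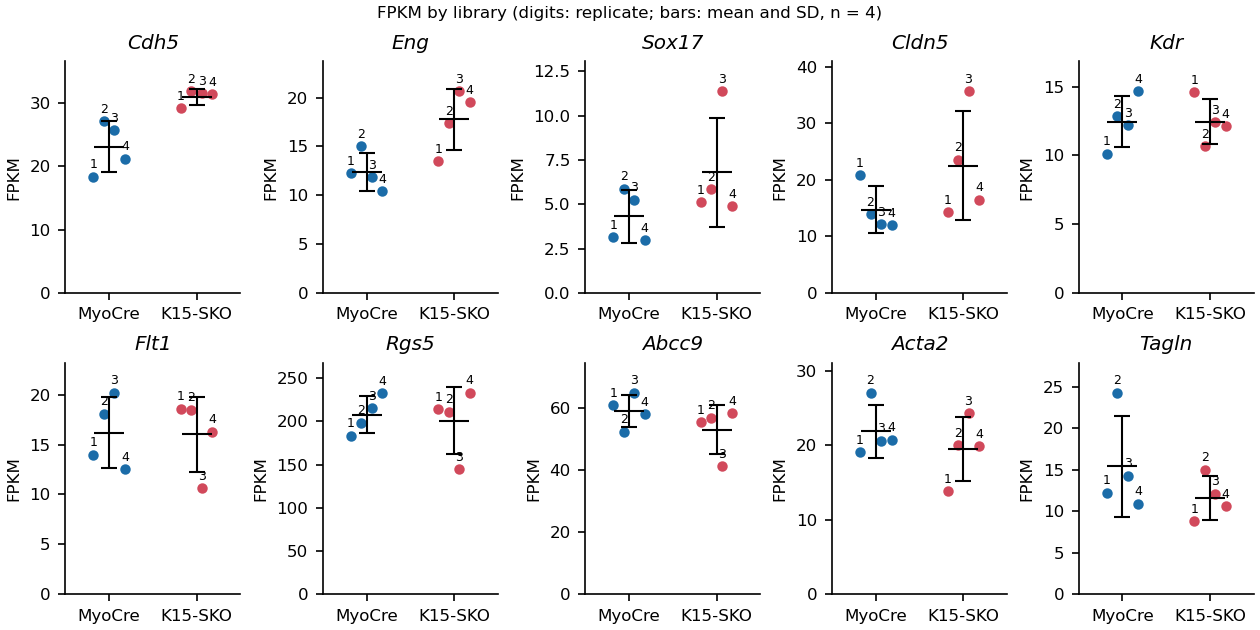
FPKM (y axes, from 0) of 10 members in each MyoCre (blue) and K15-SKO (red) library, with replicate numbers as digits and bars for the mean and SD (n = 4). Cdh5 is the only one of the 10 whose groups do not overlap, and K15-SKO replicate 3 is highest for Sox17 and Cldn5 and lowest for Flt1, Rgs5 and Abcc9.

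Pericyte genes gave group means close to each other. Rgs5, a G-protein signalling regulator of pericytes (chr1:169655501-169695813, plus strand), measured 184, 198, 216 and 233 FPKM in MyoCre and 214, 211, 144 and 233 in K15-SKO. Pdgfrb, the receptor through which PDGF-B recruits pericytes, measured 10.7, 13.7, 14.7 and 10.5 FPKM in MyoCre and 14.5, 13.4, 14.2 and 11.8 in K15-SKO. Their log2 fold changes were -0.06 (95% interval -0.47 to 0.34) and 0.13 (-0.26 to 0.51). Cspg4, the NG2 proteoglycan, averaged 4.74 ± 0.44 and 4.65 ± 0.53 FPKM. Kcnj8, the pore subunit of the vascular ATP-sensitive potassium channel (chr6:142564837-142571614, minus strand), measured 10.5, 15.6, 14 and 11.5 FPKM in MyoCre and 13.6, 12.6, 15.9 and 9.78 in K15-SKO. Abcc9, the neighbouring gene for the regulatory subunit SUR2 (chr6:142587862-142702315, minus strand), measured 60.7, 52.3, 64.8 and 58.0 FPKM in MyoCre and 55.4, 56.8, 41.1 and 58.1 in K15-SKO. Abcc9 was far above its partner in every library, and muscle fibres also make it. The pair ran, if anything, in opposite directions across the 8 libraries (Pearson's r = -0.58, exact permutation p = 0.122, adjusted p = 0.175 over 10 pairs).

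Notch3, the Notch receptor of mural cells (chr17:32120820-32166852, minus strand), had the highest mural fold change. It measured 4.55, 5.43, 5.74 and 4.49 FPKM in MyoCre and 6.47, 5.16, 8.15 and 6.18 in K15-SKO, with 1 K15-SKO library inside the control range (log2 fold change 0.32, SE 0.18, adjusted p = 0.957, limma). The contractile genes had log2 fold changes below 0 with the values as deposited, as did 77% of all genes. They were also below 0 in each of the 3 other scalings run. Relative to the median of all genes they lay at -0.05 (Acta2), -0.0015 (Myh11) and -0.23 (Tagln). Myh11 changed sign in 3 of its 20 alternatives. Leaving out 1 library at a time gave log2 fold changes of -0.29 to -0.025 for Acta2, -0.44 to 0.10 for Myh11 and -0.49 to -0.115 for Tagln. Acta2, smooth muscle alpha-actin (chr19:34241090-34255590, minus strand), measured 19.0, 27.0, 20.6 and 20.7 FPKM in MyoCre and 13.8, 20, 24.2 and 19.9 in K15-SKO. Myh11, smooth muscle myosin (chr16:14194535-14291372, minus strand), measured 5.09, 7.54, 4.78 and 2.10 FPKM in MyoCre and 4.55, 7.72, 3.18 and 2.35 in K15-SKO. Tagln, the actin-binding protein transgelin (chr9:45929619-45936058, minus strand), measured 12.2, 24.3, 14.3 and 10.9 FPKM in MyoCre and 8.76, 15, 12.1 and 10.6 in K15-SKO. Replicate 2 was the highest or next to highest library of its group in all 3 genes. The log2 fold changes were -0.18 (95% interval -0.61 to 0.26), -0.13 (-0.99 to 0.74) and -0.35 (-0.89 to 0.19), and every interval included 0.

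**Figure D3:**
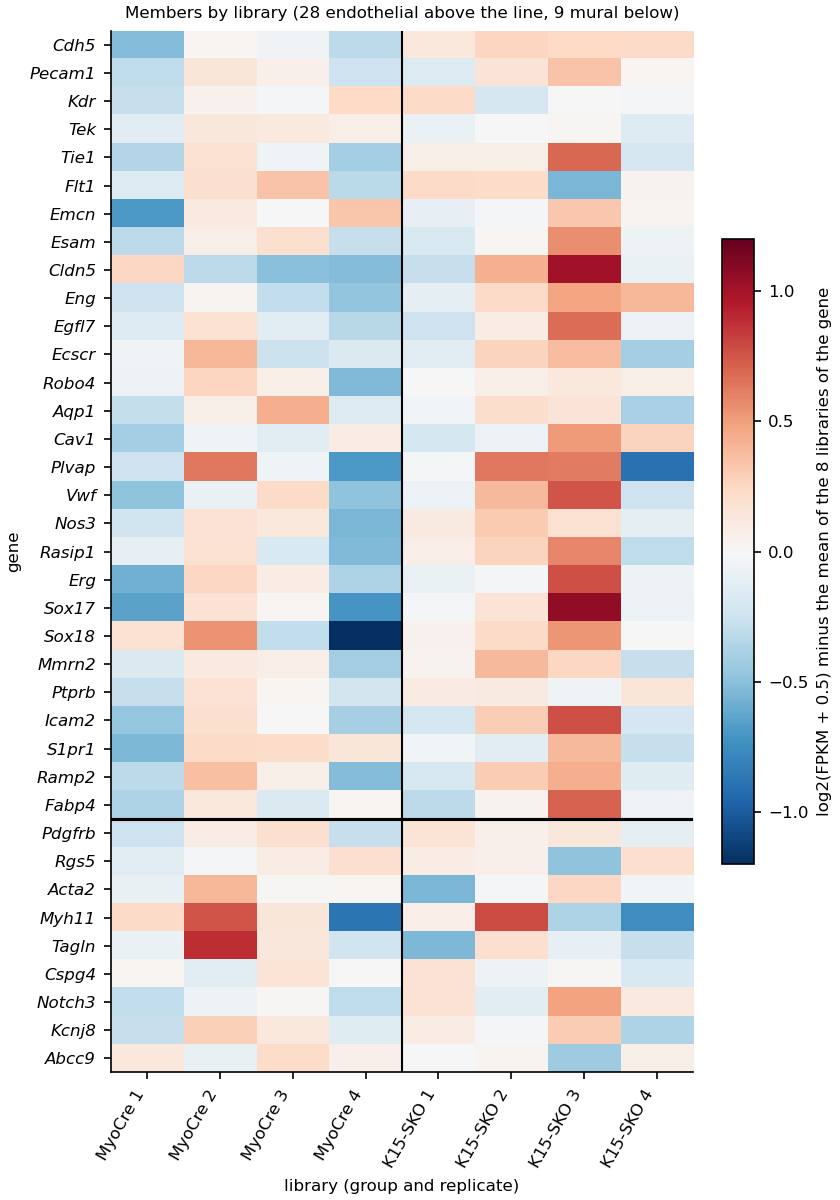
Log2(FPKM + 0.5) of each member (rows) in each library (columns), minus the mean of the gene's 8 libraries, in red above and blue below it; the horizontal line parts the 28 endothelial from the 9 mural genes. K15-SKO replicate 3 is red for most endothelial rows and is the highest library of 15 of them, MyoCre replicates 1 and 4 are the lowest libraries of 11 and 12 of them, and no library is the lowest or highest of more than 3 of the 9 mural rows.

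The endothelial genes varied together from library to library and the mural genes did not. The median Pearson correlation over the 8 libraries was 0.58 among the 378 endothelial pairs, of which 333 were above 0. It was 0.03 among the 36 mural pairs, 0.26 among the 252 pairs of 1 gene from each class, and 0.32 over all pairs of 7702 genes in the same range of mean FPKM. These are descriptions: genes of 1 library share its depth, its base composition and its mix of cells. With libraries scaled by median of ratios, the medians were 0.74 endothelial, 0.00 mural and 0.00 over all pairs, and without K15-SKO replicate 3 they were 0.52, 0.03 and 0.17. With the group means removed the endothelial median was 0.57, so the shared pattern lay mostly within the genotypes.

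Within the endothelial class, the correlation of a gene with the mean of the other 27 was 0.98 for Icam2, 0.96 for Sox17, 0.96 for Tie1, 0.95 for Ramp2 and 0.94 for Pecam1. Kdr (-0.12) and Flt1 (-0.10) were out of step with the rest, and Tek (0.31) and Emcn (0.40) were weakly aligned. Flt1 had 0.83 without K15-SKO replicate 3, whereas Kdr had -0.18. Within the mural class the 3 contractile genes had a median pairwise r of 0.66 (3 pairs), and Rgs5 (-0.32) and Abcc9 (-0.21) ran against the mean of the other 8.

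Of 10 partner pairs chosen by known function, 1 passed adjustment. The test is against no correlation, so it cannot tell a partnership from the shared variation of the class. Sox17 and Erg had r = 0.96 (exact permutation p = 0.00109, adjusted p = 0.0109) and Spearman's rho = 0.93 (exact permutation p = 0.00223, adjusted p = 0.0223). The correlation was 0.94 without K15-SKO replicate 3 and MyoCre replicate 4, the libraries farthest from the median of Sox17. Sox17 and Erg each also followed the mean of the other 27 endothelial genes (r = 0.96 and 0.93). Cdh5 and Pecam1 had r = 0.78 (exact permutation p = 0.0221, adjusted p = 0.110), 0.77 without K15-SKO replicate 3 and 0.29 without MyoCre replicates 1 and 4. The last value leaves out the libraries farthest from the median of Cdh5. That narrows the range of the gene, so the lower r cannot tell on which libraries the relation rests. Acta2 and Tagln had r = 0.77 (exact permutation p = 0.0401, adjusted p = 0.134) and -0.07 without K15-SKO replicate 1 and MyoCre replicate 2. Tek and its relative Tie1 had r = 0.27, and the VEGF receptors Kdr and Flt1 had r = -0.06. Among 6952 other genes, those most like the endothelial mean over the 8 libraries were Tinagl1 (r = 0.95), Hmcn2 (0.95) and Tspan9 (0.94), and the 10 most alike also included Otud5, H2-T23, Entpd2, Klhdc3, Ccm2 and Ddit4. Those most like the mural mean were Ndufa11 (0.98), Hadh (0.98) and Vamp8 (0.97), followed by Prdx5, Maged1, Pttg1ip, Cyth2, Fbxo6, Glrx5 and Magix.

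The classes were then set against each other within each library, as the mean centred log2 value of the 28 endothelial genes minus that of the 9 mural genes. The difference was -0.20, -0.07, -0.13 and -0.15 in MyoCre replicates 1 to 4 and -0.02, 0.07, 0.45 and 0.05 in K15-SKO. Every K15-SKO library lay above every MyoCre library, with K15-SKO replicate 3 far above the rest. The group means differed by 0.27, and by 0.17 without K15-SKO replicate 3. No test is given for this score because its genes were chosen with results known. The endothelial mean alone did overlap between groups, from -0.32 to 0.16 in MyoCre and from -0.10 to 0.43 in K15-SKO.

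**Figure D4:**
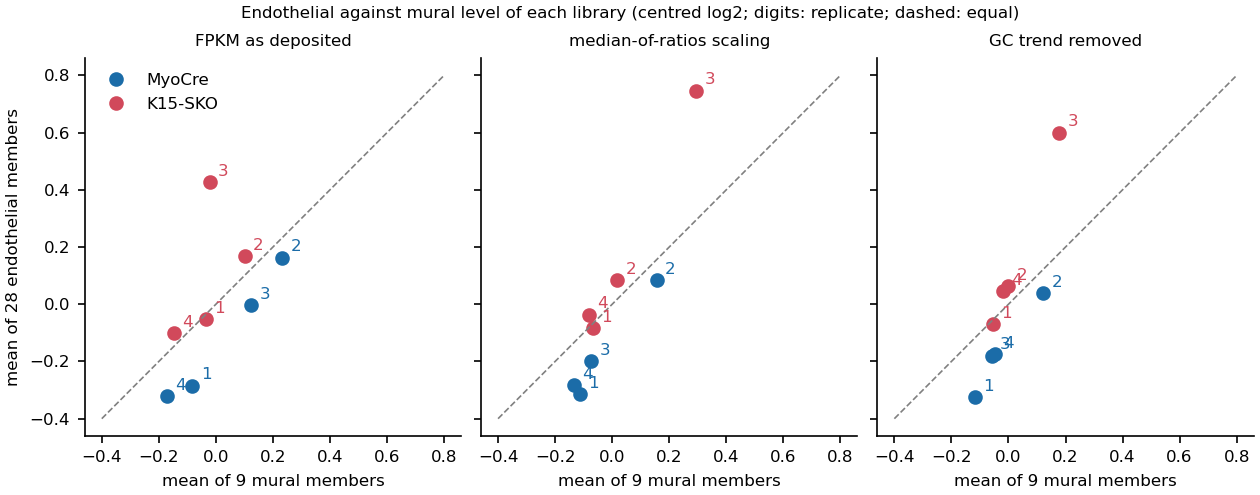
Mean centred log2 value of the 28 endothelial genes (y axis) against that of the 9 mural genes (x axis) in each library, as deposited, scaled by median of ratios and with the GC trend removed; digits are replicates and the dashed line marks equality. In the first panel the 4 MyoCre libraries lie below the line at differences of -0.20 to -0.07, and K15-SKO replicate 3 lies highest above it at 0.45.

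Values of K15-SKO replicate 3 varied with transcript length among the endothelial genes (Spearman's rho -0.57). Such trends were not particular to it: rho was 0.70 in K15-SKO replicate 1 and 0.44 in MyoCre replicate 3. For K15-SKO replicate 3, the median deviation from the other libraries was 0.71 on the log2 scale for the 9 genes with transcripts under 2000 bases. It was 0.44 for the 11 of 2000 to 4000 bases and 0.09 for the 8 over 4000 bases. Over all genes the same medians were -0.23, -0.33 and -0.43. Median GC content was 53.6% for the endothelial genes, 53.1% for the mural genes and 49.6% over all genes. Erythroid markers, which report blood held in the tissue, were also high in this library: their summed FPKM was 2045 there, 322 to 581 in the other K15-SKO libraries and 285 to 461 in MyoCre. Of the erythroid markers 6 of 6 tested had log2 fold changes above the median of all genes. With the GC trend of each library removed, the endothelial median lay 0.30 above that of all genes, and 0.17 above it when this library was also left out. In the first of these settings K15-SKO replicate 3 had an endothelial mean of 0.60 and an endothelial minus mural difference of 0.42. The part of length, GC content or blood in the endothelial values was not tested, although the endothelial median without this library is given above.

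Further vessel genes were read from lists by their counts. In these lists, the lymphatic one included, 0 genes passed the adjusted threshold, and 3 of the 97 tested (3.09%) had an unadjusted p under 0.05 (Lama5, Aplnr and Lyve1, limma), against 4.33% of all genes. Of 12 basement membrane genes 10 lay above the median of all genes, the list's median being 0.25 above it (0.12 with 7 genes above without K15-SKO replicate 3, and 0.40 without K15-SKO replicate 1). Lama5, a laminin chain of that membrane, averaged 2.86 ± 0.79 FPKM in MyoCre and 4.56 ± 0.94 in K15-SKO (log2 fold change 0.60, unadjusted p = 0.0129, adjusted p = 0.768, limma). The perlecan gene Hspg2 averaged 25.8 ± 5.34 and 32.0 ± 3.09 FPKM, and Nid2 3.45 ± 0.94 and 4.59 ± 1.24. All 7 arterial and venous genes lay above it with a median 0.29 above, against 5 of 7 and 0.18 without K15-SKO replicate 3 and a median of 0.44 without K15-SKO replicate 4. They included the connexin Gja4 at 2.97 ± 0.97 and 4.51 ± 2.28 FPKM, the venous receptor Ephb4 (log2 fold change 0.30) and Sema3g (0.16).

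Of 12 ligands and receptors of the VEGF, angiopoietin and adrenomedullin families 8 lay above the median of all genes (median 0.08 above). Without K15-SKO replicate 3 the count was 6 and the median -0.00 from it, and without K15-SKO replicate 2 the median was 0.13 above. The apelin receptor Aplnr averaged 7.01 ± 2.20 and 9.96 ± 2.02 FPKM (log2 fold change 0.50, unadjusted p = 0.0406, adjusted p = 0.957, limma), Flt4 had a log2 fold change of 0.34, and the VEGF co-receptor Nrp1 had -0.28. Of 11 Notch and PDGF genes 8 lay above it (median 0.22 above, and 0.20 to 0.30 on leaving out 1 library). Pdgfb, the pericyte-recruiting ligand, averaged 6.61 ± 0.46 and 8.24 ± 1.29 FPKM, Notch4 had a log2 fold change of 0.38 and Rbpj -0.26. Of 12 TGF-beta and BMP genes 8 lay above it, with a median 0.01 above. The median was -0.06 from it without K15-SKO replicate 4, 0.12 above without K15-SKO replicate 2, and -0.05 from it with 4 genes above without K15-SKO replicate 3. Tgfbr2, Id2 and Id3 had log2 fold changes of -0.26, -0.23 and -0.39.

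Of 11 endothelial transcription factor genes 10 lay above the median of all genes (median 0.21 above). Without K15-SKO replicate 3 the count was 7 with a median 0.12 above, without MyoCre replicate 1 the median was 0.11 above, and without K15-SKO replicate 4 it was 0.33 above. The exception was Klf4, a factor induced by flow, at 7.06 ± 2.14 and 4.89 ± 0.74 FPKM (log2 fold change -0.45, adjusted p = 0.957, limma), while Sox7 and Ets2 had 0.46 and 0.27. Of 14 further capillary genes 11 lay above the median of all genes, the list's median being 0.19 above it and -0.03 from it, with 6 genes above, without K15-SKO replicate 3. It was 0.10 above without MyoCre replicate 1 and 0.29 above without K15-SKO replicate 2. Among them the fatty acid transporter Cd36 averaged 464.8 ± 131 and 393 ± 107 FPKM, and Meox2 had a log2 fold change of -0.29. She averaged 2.69 ± 0.32 and 3.31 ± 0.26 FPKM (unadjusted p = 0.14, adjusted p = 0.957, limma). Its libraries separated upwards, as did those of 0.630% of all genes. Of 13 further pericyte and smooth muscle genes 9 lay above the median of all genes, with a median 0.09 above. Without K15-SKO replicate 3 the count was 3 and the median -0.07 from it, and over the other libraries left out the median was 0.03 to 0.15 above. Synpo2 had a log2 fold change of -0.29 and the adhesion molecule Mcam 0.36. Tbx18, a mural transcription factor, averaged 1.44 ± 0.11 and 1.01 ± 0.20 FPKM (unadjusted p = 0.0705, adjusted p = 0.957, limma). Its libraries separated downwards, as did those of 2.72% of all genes, and its values were near the filter of 1 FPKM.

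Of 5 lymphatic genes tested, 5 lay below the median of all genes, the list's median being -0.25 from it. The median was -0.14 without K15-SKO replicate 1 and -0.43 without K15-SKO replicate 2, and 4 of 5 lay below without K15-SKO replicate 3 (-0.31). How the lists differ from each other was not tested. Lyve1, a hyaluronan receptor of lymphatics and of some macrophages, averaged 3.57 ± 0.33 FPKM in MyoCre and 2.42 ± 1.29 in K15-SKO (log2 fold change -0.58, unadjusted p = 0.0446, adjusted p = 0.957, limma), and Reln and Pdpn had -0.50 and -0.30. Macrophage and leukocyte markers lay below in 10 of 10, with summed FPKM of 54.5 to 64.4 in MyoCre and 27.4 to 68.6 in K15-SKO. Without K15-SKO replicate 1 the count was 5 of 10 and the median -0.02 from that of all genes, against -0.22 with it and -0.48 without K15-SKO replicate 3. Fibroblast markers lay below in 10 of 11, with sums of 603 to 1016 and 434 to 768 FPKM, and in 7 of 11 without K15-SKO replicate 1, where the median moved from -0.26 to -0.08 (it was -0.49 without K15-SKO replicate 3). Tendon markers lay below in 7 of 8, with a median of -0.28 that was -0.16 without K15-SKO replicate 1 and -0.45 without MyoCre replicate 1. Their part in the values of the vessel genes was not tested.

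**Figure D5:**
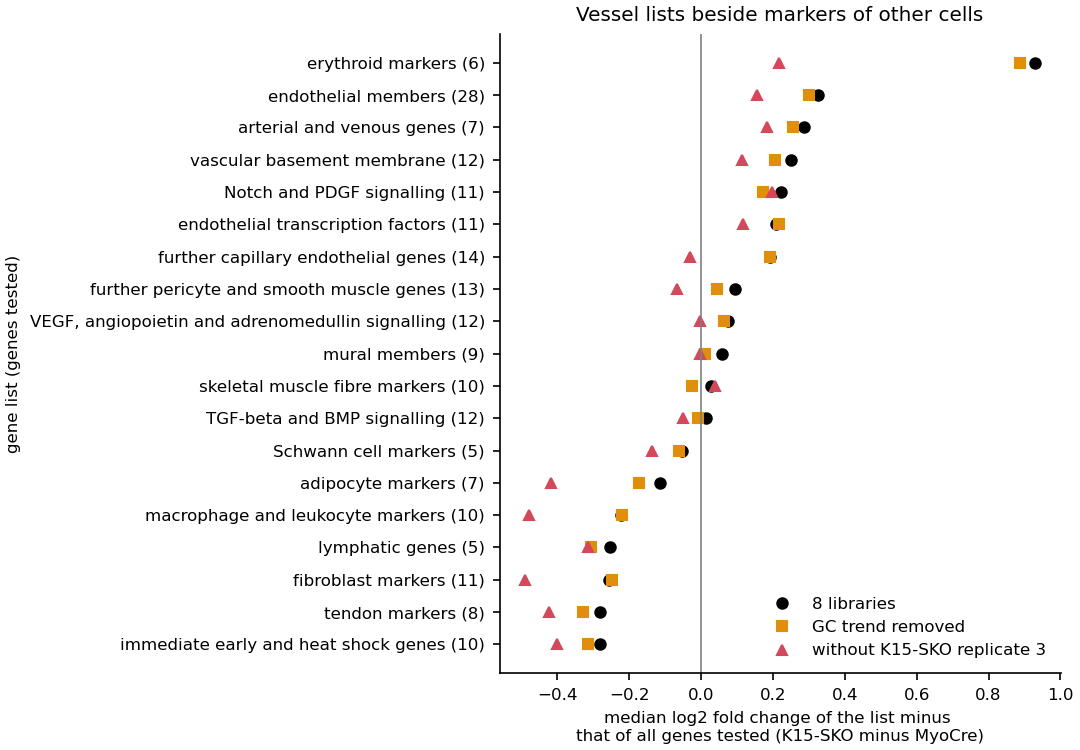
Median log2 fold change of each gene list minus that of all genes tested (x axis, K15-SKO minus MyoCre), with the satellite cell markers left out. Points show all 8 libraries (black), the GC trend removed (orange) and the data without K15-SKO replicate 3 (red). Genes tested per list are in brackets. The endothelial genes lie at 0.33 and at 0.15 without that replicate, the mural genes at 0.06 and -0.00, and the lymphatic genes at -0.25 and -0.31.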

How the data were processed

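RNA of 8 soleus libraries was sequenced, 4 per genotype. The authors deposited 1 table of 24033 genes, whose values are taken to be FPKM made with STAR, Cufflinks and Cuffdiff on mm10, per the submitters' processing notes; the notes state no versions, strand setting or annotation. Libraries were mapped to genotypes through their labels. FPKM gives no depth, so fragments were estimated from the smallest value steps, and no count model was run. Genes with a mean of 1 FPKM or more (12535) were tested with limma 3.58.1 (R 4.3.3) on log2(FPKM + 0.5). Trend and robust moderation were used, with Benjamini-Hochberg adjustment over all tested genes. On simulated data the script recovered 59 of 100 genes changed by 1 on the log2 scale and 98 of 100 changed by 2, with 9 false calls. Correlations used log2 values and exact permutation of all pairings (scipy 1.17.1). Positions, transcript lengths and GC content came from the GENCODE mm10 annotation, promoters from RefSeq. The members and lists were chosen with earlier results of these data known. Values by library were given for the defining junction, receptor, mural and abundant genes and for members with an unadjusted p under 0.05, and up to 3 genes with the lowest p were named from each vessel list. Alternatives were other scalings, pseudocounts and filters, library weights, a replicate block and leaving out each library.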

Additional observations from a re-analysis of the deposited data

Results flagged for a closer look

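Of 80 groups of 4 values checked, 5 held a library far from the other 3 (a gap to its nearest neighbour above Dixon's 95% critical value), where about 4 arise by chance at 1 in 20. In K15-SKO replicate 3, Erg measured 9.12 FPKM against 4.82 to 5.04 in the other 3 K15-SKO libraries, and Sox17 measured 11.4 against 4.89 to 5.84. Abcc9 measured 41.1 FPKM in the same library against 55.4 to 58.1. Cdh5 was lowest in K15-SKO replicate 1, at 29.1 FPKM against 31.3 to 31.8, which still lay above every MyoCre library. S1pr1 was lowest in MyoCre replicate 1, at 16.0 FPKM against 26.0 to 27.6. K15-SKO replicate 3 held 3 of the 5.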

How the results depend on the processing

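In each of the 21 alternatives, 0 endothelial and 0 mural genes passed the adjusted threshold (limma). Endothelial genes at an unadjusted p under 0.05 numbered 0 (without MyoCre replicate 4, 4.67% of all genes) to 9 (GC trend removed, 5.76%), and mural genes 0 to 3 (library weights, 11.1%). Over all genes, 69 calls became 157 with library weights, 39 at a minimum mean of 5 FPKM and 12 without genes at 0 in one group. Labels share replicate numbers but state no pairing. Same-numbered libraries correlated at 0.10, 0.23, 0.00 and 0.28, and differently numbered ones at -0.24 to 0.13. Whether the replicates were paired cannot be told from these values. With a replicate block 0 members and 78 genes were called. In that setting 4 endothelial genes had an unadjusted p under 0.05 (limma), against 5.76% of all genes. The median of all genes was -0.12 as deposited, 0.00 after median-of-ratios scaling, -0.00 after upper-quartile scaling and -0.01 after quantile normalization. Relative to it the endothelial median ranged from 0.15 (without K15-SKO replicate 3) to 0.44 (without K15-SKO replicate 1) on leaving out 1 library, and was 0.14 with library weights, where the mural median was 0.12. The mural median, -0.06 as deposited, had the opposite sign after each of the 3 scalings (0.07, 0.07 and 0.02), with library weights (0.07), with the GC trend removed (0.01) and without K15-SKO replicate 4 (0.03). The endothelial minus mural difference ranged from 0.17 to 0.32 on leaving out 1 library. Settings that remove the GC trend or the group means were added after seeing the data.

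Of 773 log2 fold changes of members under the alternatives, 72 changed sign, 18 of them under the 3 scalings, which move the values of all genes together (the medians above), and 54 elsewhere. The cause of the 54 was not tested. With median-of-ratios scaling the reversed values were 0.11 for Aqp1, 0.10 for Cspg4, 0.11 for Flt1, 0.074 for Rgs5, 0.11 for S1pr1 and 0.029 for Tek. With upper-quartile scaling the reversed values were 0.11 for Aqp1, 0.10 for Cspg4, 0.11 for Flt1, 0.071 for Rgs5, 0.11 for S1pr1 and 0.027 for Tek. With quantile normalization the reversed values were 0.051 for Aqp1, 0.081 for Cspg4, 0.11 for Flt1, 0.018 for Rgs5, 0.11 for S1pr1 and 0.032 for Tek. With library weights the reversed values were 0.018 for Aqp1, 0.085 for Cspg4, -0.089 for Ecscr, -0.065 for Egfl7, -0.0039 for Esam, -0.028 for Fabp4, 0.18 for Flt1, 0.11 for Rgs5 and 0.067 for S1pr1. With the GC trend removed the reversed values were 0.053 for Aqp1, 0.013 for Cspg4, 0.10 for Flt1, 0.11 for Rgs5, 0.12 for S1pr1 and 0.052 for Tek. With the GC trend removed and K15-SKO replicate 3 left out the reversed values were 0.033 for Cspg4, -0.016 for Ecscr, -0.019 for Fabp4, 0.21 for Flt1, -0.033 for Kcnj8, 0.041 for Myh11 and 0.078 for Rgs5. Leaving out 1 library at a time gave -0.13 to 0.11 for Aqp1, -0.090 to 0.027 for Cspg4, -0.072 to 0.19 for Ecscr, -0.091 to 0.25 for Emcn, -0.0025 to 0.34 for Fabp4 and -0.14 to 0.15 for Flt1, and -0.10 to 0.13 for Kcnj8, -0.088 to 0.083 for Kdr, -0.44 to 0.10 for Myh11, -0.024 to 0.50 for Plvap, -0.14 to 0.086 for Rgs5, -0.018 to 0.24 for Robo4 and -0.21 to 0.064 for S1pr1.

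Estimated fragments limit the lowest members most: 30 fragments for Ecscr give a counting error of 18.3% in that library.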
